A study of Mus musculus with 4 samples.

Results

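The sestrins and mTORC1 restraint genes are 6 of the 32285 genes in the deposited matrices of a single-cell RNA-seq study of mouse retina. They are the sestrins Sesn1, Sesn2 and Sesn3, the mTORC1 repressor Ddit4, and the translation repressors Eif4ebp1 and Eif4ebp2, and all 6 symbols were found in all 4 libraries. The list was chosen by symbol, with the NLGF and WT levels of Sesn2 and Eif4ebp1 in Müller glia already known, so the Müller glia comparison of the members is given below as a description with no test. The retinas came from 1 NLGF female, 1 NLGF male, 1 WT female and 1 WT male, all 30 days old, with 1 retina and 1 library per animal. NLGF mice are knock-in mice whose own App gene carries a humanised and mutated amyloid-beta region, in every cell and under its own promoter. WT mice carry wild-type App. No treatment, litter, zygosity or sequencing batch is given in the labels.

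mTORC1 is a lysosome-bound kinase complex that switches on protein synthesis and switches off autophagy when amino acids and growth factors are plentiful. Sestrins are stress-induced proteins that bind GATOR2 and thereby keep mTORC1 off the lysosome, Sesn2 being a leucine sensor, while the Ddit4 product (REDD1) acts through the TSC complex that inactivates Rheb. The 4E-BPs encoded by Eif4ebp1 and Eif4ebp2 hold the cap-binding protein eIF4E in an inactive state until mTORC1 phosphorylates them. ATF4 is a known inducer of Sesn2, Ddit4 and Eif4ebp1, p53 of Sesn1 and Sesn2, FoxO factors of Sesn3, and hypoxia and glucocorticoids of Ddit4. Müller glia are the radial support cells of the retina, which take up glutamate and potassium and feed photoreceptors.

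On GRCm38, Sesn1 lies at chr10:41809935-41908424 on the plus strand and Sesn2 at chr4:132492032-132510501 on the minus strand. Sesn3 lies at chr9:14275067-14333101 and Eif4ebp1 at chr8:27260329-27276674, both on the plus strand. Ddit4 lies at chr10:59949669-59951834 and Eif4ebp2 at chr10:61428491-61452661, both on the minus strand. All 6 are protein-coding genes, and the exons of 0 other annotated genes overlapped theirs. Sequences before the RefSeq start sites of 5 of the 6 genes were matched on GRCm38.p6, with 2 start sites for Sesn1. Those of Sesn1, at both sites, and of Sesn3 lie wholly inside the gene spans given above, past the annotated gene start. The windows of 250 bases before each start were searched on both strands for TGATGNAA (the CARE element bound by ATF4 dimers), TGTTTAC (a FoxO site) and ACGTG (the core of the hypoxia element). Over 32851 promoter windows of the same length, 3.45%, 3.17% and 16.6% held these letters, in that order. The windows of Sesn1, Sesn2, Sesn3, Ddit4 and Eif4ebp2 held 0 matches to TGATGNAA and 0 to TGTTTAC, and ACGTG was found in those of Ddit4, at position -187, and Eif4ebp2, at position -182, counted back from the start site. The sequences of Sesn2, which was higher in NLGF Müller glia, and Ddit4, which was not, are printed 5′ to 3′ on the minus strand up to the annotated gene start, at chr4:132510502-132510706 and chr10:59951835-59952020, with ACGTG in capitals.
Sesn2: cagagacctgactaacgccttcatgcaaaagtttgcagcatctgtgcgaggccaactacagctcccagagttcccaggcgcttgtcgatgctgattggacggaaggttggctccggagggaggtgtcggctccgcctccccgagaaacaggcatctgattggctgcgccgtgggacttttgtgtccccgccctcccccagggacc
Ddit4: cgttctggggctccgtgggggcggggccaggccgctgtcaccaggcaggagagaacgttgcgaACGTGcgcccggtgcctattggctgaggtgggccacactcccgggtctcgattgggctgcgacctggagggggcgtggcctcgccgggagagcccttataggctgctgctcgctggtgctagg

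The matrices held 35191 barcodes with 85860041 UMIs (unique molecular identifiers, 1 per captured transcript), of which 31559 cells in 20 clusters were used. Library totals lay between 19128388 and 23473093 UMIs, and 132 barcode sequences occurred in more than 1 library. Each class name rests on marker genes and stands for cells that resemble that type, and 1 cluster of 293 cells stayed unnamed. The retinal ganglion class holds a cluster with as many leading horizontal cell markers (Calb1, Lhx1, Onecut2) as ganglion cell markers, and the endothelial class is led by the pericyte gene Rgs5 beside Cldn5, so both are mixed. In the ganglion class the horizontal markers summed to 5748 and 5831 CPM in the NLGF female and male and 11287 and 6711 CPM in the WT female and male. The ganglion markers summed to 5937 and 4015 CPM in the NLGF female and male and 2427 and 3483 CPM in the WT female and male. Values given for retinal ganglion cells are those of this mixed class. All 12 Müller markers had UMIs in every library of the Müller class, at 37960 and 38990 CPM (UMIs per 1000000 UMIs of the class, summed over the markers) in the NLGF female and male, against 38383 and 37943 CPM in the WT female and male. The Müller class joined 2 clusters, a deep one with medians of 7664 to 11222 UMIs per cell and a shallow one with medians of 768 to 917. The shallow cluster had 2 pigment epithelium genes (Ttr, Rgr) and 1 Müller gene (Rlbp1) among its 10 leading genes, and its pigment epithelium genes came from both males. The 6 listed pigment epithelium markers summed to 8.98 CPM in the NLGF female and 1117 CPM in the NLGF male, against 7.41 CPM in the WT female and 3211 CPM in the WT male. In the deep cluster the same markers summed to 16.5 to 24.5 CPM, with the pigment epithelium gene Rpe65 at 0 UMIs in all 4 libraries. Müller values are therefore given for each cluster and for their sum.

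Sesn2 and Eif4ebp1 were higher in NLGF than in WT Müller glia, by 3.81-fold and 4.33-fold in mean CPM of the summed class, and the other 4 members lay between 0.972-fold and 1.08-fold. In the deep Müller cluster Sesn2 reached 19.4 CPM in the NLGF female and 29.8 CPM in the NLGF male, against 8.45 CPM in the WT female and 6.04 CPM in the WT male. Those levels rest on 36, 55, 10 and 11 UMIs in the same order of libraries. Both NLGF libraries lay above both WT libraries. In the shallow cluster 12 Sesn2 UMIs were counted in the NLGF libraries (7 in the female, 5 in the male) and 0 in the WT libraries. Set against a floor of 3 counts over the WT group, the 12 NLGF UMIs gave a 3.08-fold difference. That value leaves out the counting error of the NLGF UMIs and is no lower bound. For the summed class the values were 20.7 and 28.9 CPM in the NLGF female and male and 7.58 and 5.41 CPM in the WT female and male, a log2 fold change of 1.92 ± 0.33 (SE, n = 2 libraries per genotype). The deep cluster alone gave 1.74 ± 0.34.

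Eif4ebp1, whose product blocks cap-dependent translation, had 4 libraries that fell into a high NLGF pair and a low WT pair. In the deep cluster it had 53.3 CPM in the NLGF female and 52.5 CPM in the NLGF male, against 11.8 CPM in the WT female and 13.7 CPM in the WT male. In the shallow cluster 15 and 11 UMIs were counted in the NLGF female and male, against 1 and 2 UMIs in the WT female and male. Over the summed class Eif4ebp1 stood at 54.8 and 52.0 CPM in the NLGF libraries and at 11.4 and 13.3 CPM in the WT libraries. The genotypes did not overlap in either cluster or in their sum. The log2 fold change was 2.04 ± 0.21 for the summed class and 1.97 ± 0.23 for the deep cluster. Of the 6 members, 2 had libraries that did not overlap and were higher in NLGF, and 21.2% of all 11162 genes tested in Müller glia did so. Lower without overlap were 0 members and 19.4% of all genes. The members' counts are not read against those shares, because the list was made with these values known.

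**Figure D1:**
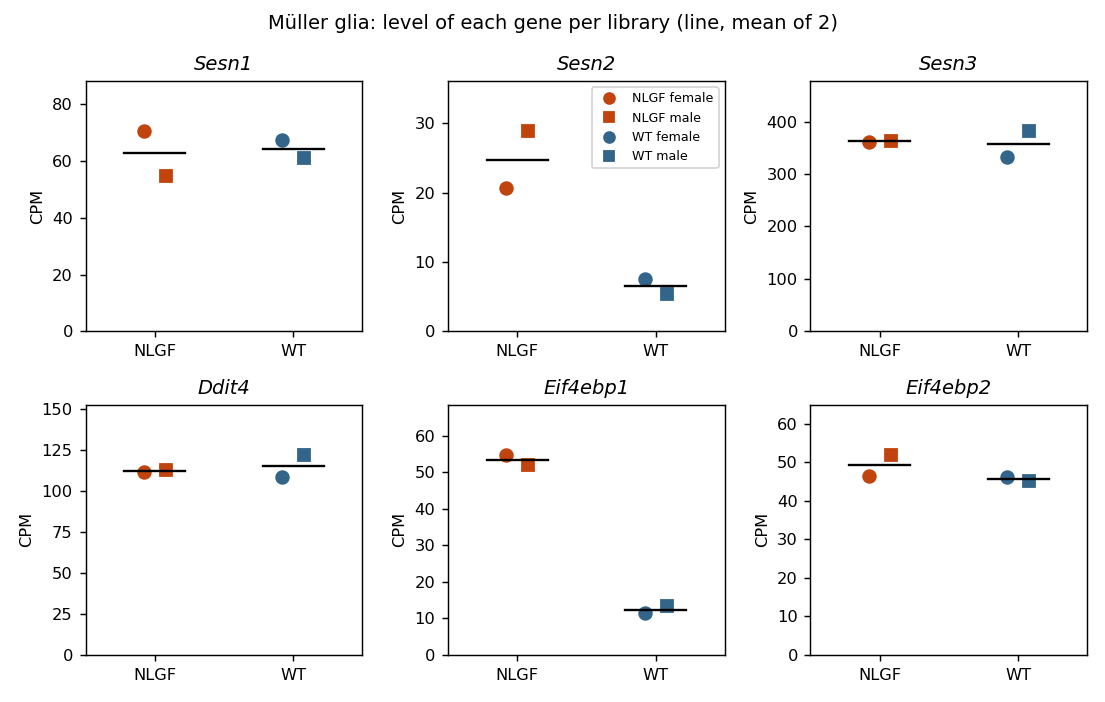
Level of each of the 6 genes in the summed Müller class, in CPM, with 1 point per library (circles female, squares male, NLGF in orange on the left, WT in blue on the right) and a line at the mean of 2 libraries. Sesn2 (20.7 and 28.9 against 7.58 and 5.41 CPM) and Eif4ebp1 (54.8 and 52.0 against 11.4 and 13.3 CPM) separate by genotype, and the libraries of the other 4 genes lie close together.

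The remaining members had close levels in both genotypes in Müller glia. Sesn3, the FoxO-induced sestrin, had 362 CPM in the NLGF female and 363 CPM in the NLGF male, between the 332 CPM of the WT female and the 382 CPM of the WT male. Ddit4 had 111 and 113 CPM in NLGF and 108 and 122 CPM in WT. Sesn1, the sestrin induced by p53, had 70.6 and 54.9 CPM in NLGF and 67.5 and 61.0 CPM in WT. Eif4ebp2, the 4E-BP that predominates in neurons, had 46.6 and 52.0 CPM in NLGF and 46.3 and 45.3 CPM in WT. The genotypes overlapped for Sesn1, Sesn3 and Ddit4, and for Eif4ebp2 once libraries were scaled with TMM (trimmed mean of M-values) factors. Their log2 fold changes were -0.07 ± 0.16 for Sesn1, -0.02 ± 0.10 for Sesn3, -0.09 ± 0.11 for Ddit4 and 0.07 ± 0.16 for Eif4ebp2. Ddit4 was lower in NLGF in the shallow cluster, at 49.4 and 52.4 CPM in the NLGF female and male and 74.1 and 80.0 CPM in the WT female and male, from 10 to 17 UMIs per library, and its log2 fold change there was -0.62 ± 0.42.

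Markers of other cells in the Müller class were also summed. The 7 astrocyte markers summed to 902 and 1080 CPM in the NLGF female and male and to 1623 and 907 CPM in the WT female and male. The 8 rod markers summed to 2234 and 2100 CPM in the NLGF libraries and to 2858 and 2235 CPM in the WT libraries. Their level was higher in the shallow cluster, at 10624 and 8710 CPM in the NLGF female and male and 15263 and 10597 CPM in the WT female and male. In UMIs the 2 clusters held similar amounts. The shallow one had 2365 and 1996 in the NLGF female and male and 2060 and 2251 in the WT female and male. The deep one had 2285 and 2367 in the NLGF female and male and 1709 and 2291 in the WT female and male. In the deep cluster the rod markers summed to 1229 to 1444 CPM. The part of rod RNA in the shallow cluster's values was not tested. Without cells holding UMIs of at least 2 astrocyte markers, the log2 fold changes were 2.12 ± 0.35 for Sesn2 and 2.07 ± 0.23 for Eif4ebp1. The values of both genes were thus as large without those cells.

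**Figure D2:**
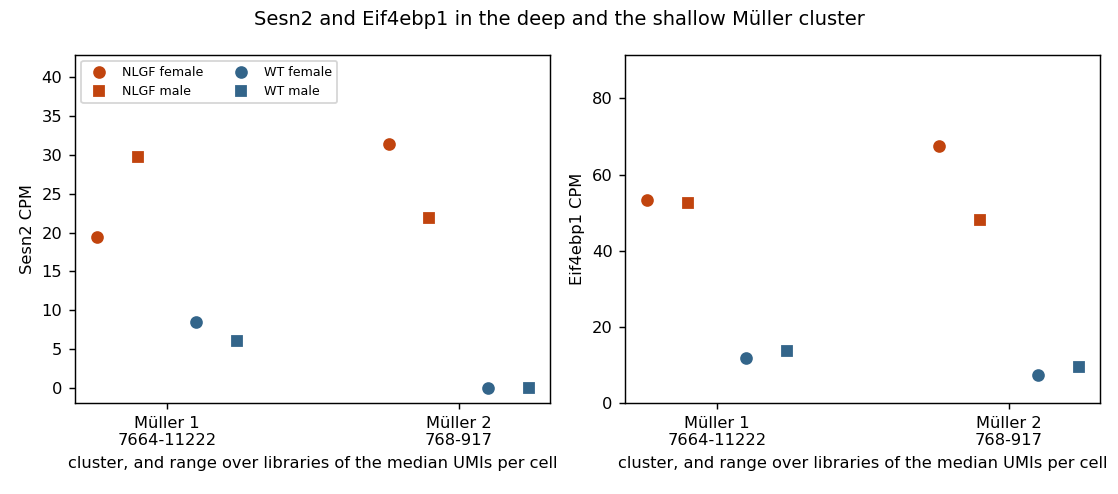
Level of Sesn2 (left) and Eif4ebp1 (right) in CPM in the deep and the shallow Müller cluster, with the range over libraries of the median UMIs per cell under each cluster and 1 point per library (NLGF in orange, WT in blue). In both clusters the NLGF libraries lie above the WT libraries, and Sesn2 has 0 UMIs in the WT libraries of the shallow cluster.

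The difference was also seen in the share of cells with a UMI. In the deep cluster Eif4ebp1 had a UMI in 33.8% of cells of the NLGF female (95% exact binomial interval 27.4 to 40.7%) and 32.7% of the NLGF male (26.1 to 39.7%). It had one in 8.67% of cells of the WT female (4.70 to 14.4%) and 12.8% of the WT male (8.28 to 18.6%). In rods, a class nearly without the gene, 0.149 to 0.204% of cells had an Eif4ebp1 UMI at medians of 807 to 953 UMIs per cell. Sesn2 had a UMI in 15.0% and 18.9% of deep-cluster cells in the NLGF female and male, against 6.67% and 6.11% in the WT female and male. The intervals of the NLGF and WT libraries did not overlap for Eif4ebp1. For Sesn2 those of the NLGF female (10.4 to 20.6%) and both WT libraries (3.24 to 11.9% and 3.09 to 10.7%) did overlap. All intervals cover counting error only. Thinning every cell of the class to 1000 UMIs, which left out 142 and 126 cells in NLGF and 69 and 130 cells in WT, gave 4.06% and 3.50% for Eif4ebp1 in the NLGF female and male, against 1.58% and 1.99% in the WT female and male. At that depth each share rests on 3 to 11 cells. Both NLGF shares lay above both WT shares, but their intervals overlapped, and a genotype difference at that depth was not tested.

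Up to 5 UMIs of Sesn2 or Eif4ebp1 were found in a single NLGF Müller cell, against up to 1 of Sesn2 and 2 of Eif4ebp1 in a WT cell. In the deep cluster 15 cells of the NLGF female and 17 of the NLGF male held UMIs of both genes, and 1 cell each of the WT female and WT male did. The product of the 2 shares would give 10.5 and 12.1 cells in the NLGF female and male and 0.867 and 1.41 cells in the WT female and male. Depth differs between cells, and its part in these counts was not tested. For Sesn2 and Ddit4 the counts were 16 and 26 cells in the NLGF libraries, beside products of 15.7 and 20.2 cells.

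Summed over the whole retina, Eif4ebp1 still separated by genotype and Sesn2 separated only narrowly. In such a sum, the number of cells of a type and the RNA per cell cannot be told apart. Over all cells Eif4ebp1 had 7.41 and 6.71 CPM in the NLGF female and male, against 2.03 and 2.39 CPM in the WT female and male. Müller glia held 89.8% and 80% of the Eif4ebp1 UMIs of the NLGF libraries and 39.5% and 54% of those of the WT libraries. Sesn2 over all cells had 9.69 and 10.4 CPM in NLGF and 9.64 and 7.31 CPM in WT, with 25.9% and 28.7% of its UMIs in NLGF Müller glia and 5.56% and 7.19% in WT Müller glia. Eif4ebp1 transcripts in the retina were thus mostly those of Müller glia in NLGF, while most Sesn2 transcripts came from other cells in both genotypes.

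The 6 genes were distributed over the 9 classes in different ways, given here as levels over all 4 libraries with no test, because the classes come from clustering the same cells. Sesn3 was graded, with a median of 363 CPM in Müller glia, 252 CPM in rod bipolar cells, 212 CPM in cone bipolar cells and 151 CPM in amacrine cells, and the ranges of these neighbours did not overlap. It stood at 60.4 CPM in cones and 60.3 CPM in rods, whose ranges overlapped, and at 15.6 CPM in microglia. Eif4ebp1 was nearly restricted to non-neuronal cells, and its order there differed by genotype. In NLGF, Müller glia (54.8 and 52.0 CPM) lay above endothelial cells (10.1 and 18.1 CPM, from 1 and 5 UMIs). The endothelial value of the NLGF female lay below its level of 3 counts, 30.4 CPM. In WT, Müller glia (11.4 and 13.3 CPM) lay below endothelial cells (25.4 and 33.7 CPM, from 7 and 10 UMIs). Microglia held 4 Eif4ebp1 UMIs in all, below the level of 3 counts in each library, and rods had a median of 1.41 CPM. It had 0 UMIs in all 4 libraries of rod bipolar and amacrine cells. Its paralog Eif4ebp2 was found in every class, highest in endothelial cells at a median of 132 CPM and next in amacrine cells at 57.3 CPM, and the ranges of these 2 classes did not overlap.

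Ddit4 had its highest medians in endothelial cells (134 CPM), rods (119 CPM) and Müller glia (112 CPM), whose ranges overlapped, and the next class, cone bipolar cells at 54.3 CPM, lay below the range of Müller glia. Sesn1 was graded, with medians of 68.4 CPM in endothelial cells, 64.2 CPM in Müller glia and 59.3 CPM in rods and, at the low end, 25.1 CPM in retinal ganglion cells, and each class overlapped the next. Sesn2 had medians of 16.0 CPM in rod bipolar cells, 15.5 CPM in cones, 13.3 CPM in cone bipolar cells and 4.05 CPM in rods. Its level in Müller glia has no common place in this order: the NLGF libraries (20.7 and 28.9 CPM) lay above those of NLGF cones and cone bipolar cells, and the WT libraries (7.58 and 5.41 CPM) lay below those of WT rod bipolar cells, cones and cone bipolar cells. Microglia had 0 Sesn2 UMIs in all 4 libraries, which hold 12 to 30 microglial cells each.

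**Figure D3:**
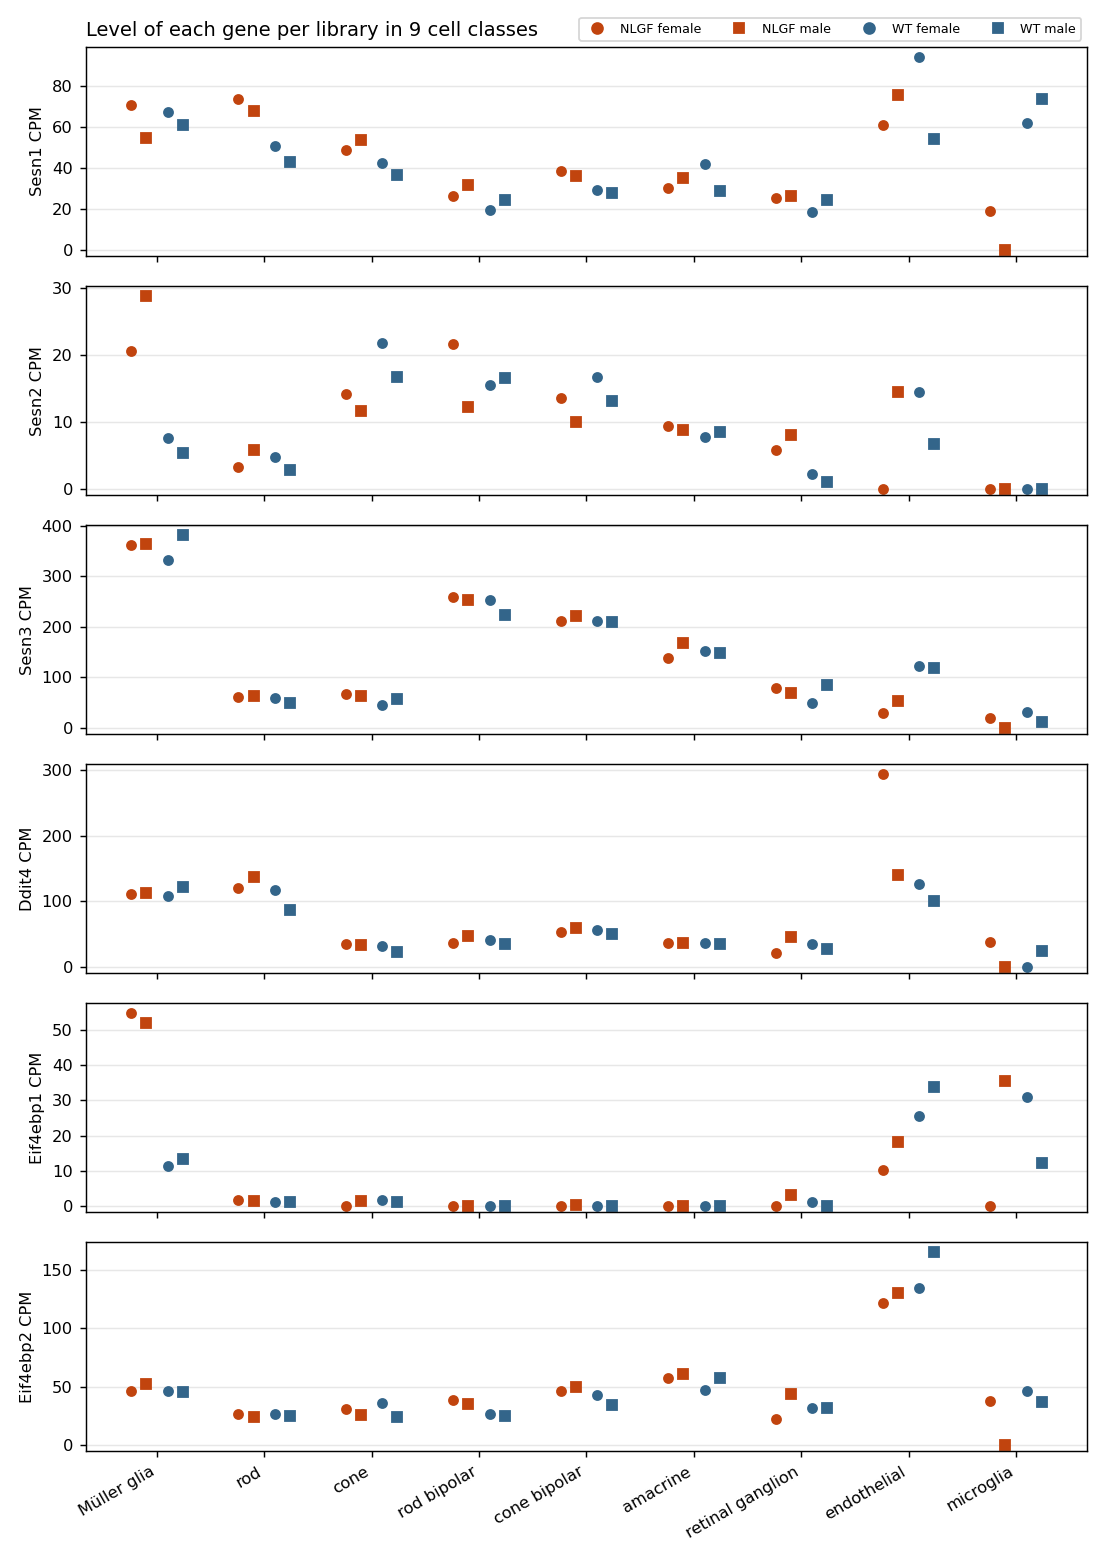
Level of each gene in CPM in 9 cell classes (rows are genes, 1 point per library, circles female, squares male, NLGF in orange left of WT in blue within each class). Sesn3 steps down from Müller glia to bipolar and amacrine cells, Eif4ebp1 reaches at most 3.05 CPM in any neuronal class, and the NLGF libraries of Sesn2 and Eif4ebp1 stand apart in Müller glia.

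Outside Müller glia, NLGF was tested against WT for the members with edgeR's quasi-likelihood test on counts summed per library and class, with p-values adjusted over all genes of the class. Of 48 member and class pairs 34 passed the filter on low counts, and 0 of these 34 had an adjusted p under 0.05, while 6 had an unadjusted p under 0.05. The share of all genes with an unadjusted edgeR p under 0.05 was 8.33% in rods, 4.69% in amacrine cells, 6.36% in cone bipolar cells, 5.16% in endothelial cells, 5.67% in cones, 6.15% in rod bipolar cells, 5.3% in retinal ganglion cells and 9.33% in microglia. The share of all genes called by edgeR was 0.00805% in rods, 0.0535% in amacrine cells, 0.0786% in cone bipolar cells, 0.096% in endothelial cells and 0% in cones, rod bipolar cells, retinal ganglion cells and microglia. DESeq2 called 0 of 45, with 2 under an unadjusted p of 0.05. Over all genes DESeq2 called 2 in rods, 2 in amacrine cells, 6 in cone bipolar cells, 3 in endothelial cells, 2 in cones, 3 in retinal ganglion cells and 0 in rod bipolar cells and microglia. Genes with an unadjusted DESeq2 p under 0.05 numbered 336 in rods, 84 in amacrine, 106 in cone bipolar and 50 in endothelial cells. They numbered 59 in cones, 173 in retinal ganglion cells, 82 in rod bipolar cells and 42 in microglia. DESeq2 was run on all genes with a UMI, so its totals differ from edgeR's and the members' 2 are not read against these counts. Eif4ebp1 passed the filter only in rods, where it had 12 and 13 UMIs in the NLGF female and male and 10 and 10 in the WT female and male, and its log2 fold change was 0.34 ± 0.42 (adjusted p = 0.866). With 2 libraries per genotype the edgeR p-values rest on the spread between the female and the male of each genotype and on a spread shared over genes. The first of these includes any difference by sex. The estimated prior degrees of freedom, which weight that shared spread, ran from 7.805 in retinal ganglion cells to 22.82 in cone bipolar cells.

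**Figure D4:**
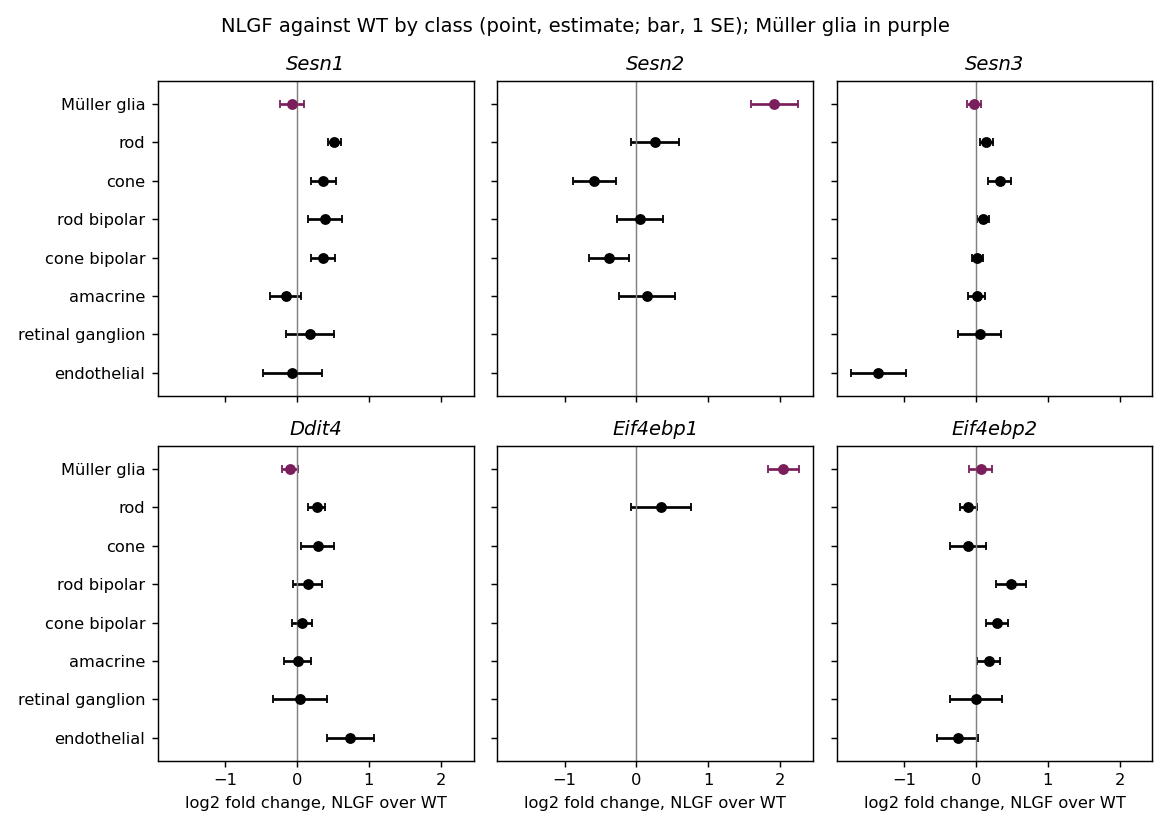
Log2 fold change of NLGF over WT for each gene (panels) in the cell classes where it passed the filter on low counts, with points for the edgeR estimate and bars for 1 SE, Müller glia in purple. Only the Müller values of Sesn2 (1.92) and Eif4ebp1 (2.04) lie above 1, and the value of Sesn3 in endothelial cells (-1.36) lies below -1.

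Sesn1 in rods had the smallest p of the 34 tests. It stood at 74.0 CPM in the NLGF female and 67.7 CPM in the NLGF male, from 551 and 574 UMIs, against 50.9 CPM in the WT female and 43.0 CPM in the WT male, from 398 and 396 UMIs. The genotypes did not overlap, and the log2 fold change was 0.52 ± 0.09 with an adjusted p of 0.258. In rods 4 of 6 members did not overlap and were higher in NLGF and 1 was lower, beside 21.4% and 18.2% of all 12418 genes. The Sesn1 call depended on the fit: it had an adjusted p of 3.82e-05 with sex as a block, 0.000409 with no filter on low counts, 0.0428 without the NLGF male, 3.69e-08 without the WT female and 0.00712 without the WT male, and 0.427 without the NLGF female and 0.999958 with DESeq2. With a library left out, 1 genotype is a single library assumed to vary like the other genotype's pair. The estimated prior degrees of freedom in rods were then 681 without the NLGF male and infinite without each of the other 3 libraries, against 10.16 with all 4, so these p-values lean on the spread shared over genes.

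Rods fell into 5 clusters of at least 10 cells per library, which took unlike shares of each library. Rod cluster 1, where Sesn1 was low in all libraries (25.7 to 34.0 CPM), held 17.4% and 19.1% of the rods of the NLGF female and male, against 20.5% and 30.2% of those of the WT female and male. Rod cluster 2, with 60.8 to 92.2 CPM of Sesn1, held 24.1% and 24.9% of rods in the NLGF female and male, against 17.1% and 15.5% in the WT female and male. The shares of both clusters separated by genotype, and their part in the Sesn1 value over all rods was not tested. Rod cluster 4 held 42.7% and 21.0% in the NLGF female and male, against 54.0% and 12.5% in the WT female and male, and overlapped. Rod clusters 3 and 4 parted by sex in both genotypes, with Eif2s3y and Tsix as their first leading genes. Rod cluster 3 held 440 and 1633 cells of the NLGF female and male and 392 and 1524 of the WT female and male. Rod cluster 4 held 2508 and 1360 cells of the NLGF female and male and 3621 and 813 of the WT female and male. The part of sex in the Sesn1 values of these 2 clusters was not tested. By cluster, in an alternative chosen after the data were seen, the log2 fold change of Sesn1 was 0.13 ± 0.17, 0.51 ± 0.12, 0.71 ± 0.19, 0.48 ± 0.17 and -0.24 ± 0.37 in rod clusters 1 to 5, and edgeR's adjusted p was above 0.2 in each. In rod cluster 2, Sesn1 had 92.2 and 91.0 CPM in the NLGF female and male, against 66.0 and 60.8 CPM in the WT female and male. In rod cluster 3, it had 124 and 102 CPM in the NLGF female and male (45 and 142 UMIs), against 59.2 and 66.0 CPM in the WT female and male (18 and 85 UMIs). The NLGF libraries thus lay above the WT libraries in both of these clusters, and the genotypes overlapped in rod clusters 1, 4 and 5.

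**Figure D5:**
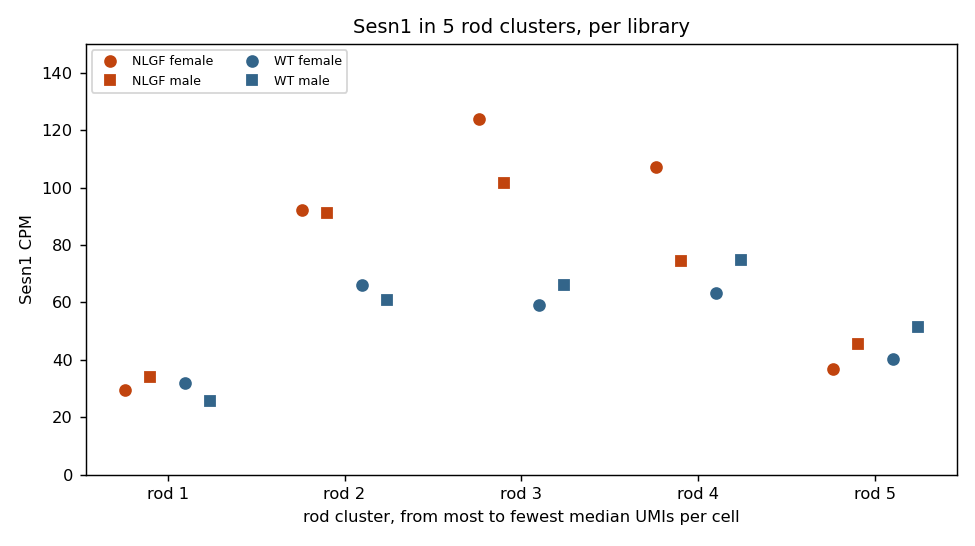
Level of Sesn1 in CPM in 5 rod clusters ordered from most to fewest median UMIs per cell, with 1 point per library (circles female, squares male, NLGF in orange left of WT in blue). The NLGF libraries lie above the WT libraries in rod clusters 2 and 3, and the genotypes overlap in rod clusters 1, 4 and 5.

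Sesn1 had no overlap between genotypes and was higher in NLGF in 3 further classes, none of them called. In cones it had 49.0 and 53.8 CPM in the NLGF female and male, against 42.3 and 36.8 CPM in the WT female and male, a log2 fold change of 0.37 ± 0.17 (edgeR adjusted p = 0.887). In cone bipolar cells it had 38.6 and 36.0 CPM in NLGF against 29.3 and 27.8 CPM in WT, with 0.36 ± 0.17 (0.777), and in rod bipolar cells 26.2 and 31.8 CPM against 19.7 and 24.2 CPM, with 0.39 ± 0.24 (0.856). The 4 classes come from the same 4 animals and are not separate evidence. The share of all genes without overlap and higher in NLGF was 15.8% in cones, 15.9% in cone bipolar cells and 17.6% in rod bipolar cells, where 2, 2 and 3 of the 5 members tested in each class did so, while 0 were lower in cone bipolar and rod bipolar cells, beside 20.2% and 17.7% of all genes. The summed rod markers overlapped between genotypes in cones, at 16450 and 7010 CPM in the NLGF female and male and 11510 and 7327 CPM in the WT female and male. In amacrine cells Sesn1 had -0.16 ± 0.21, and its libraries overlapped.

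In cones Sesn2 stood lower in NLGF, without overlap. It had 14.2 and 11.6 CPM in the NLGF female and male (20 and 16 UMIs), against 21.7 and 16.8 CPM in the WT female and male (38 and 26 UMIs), and the log2 fold change was -0.58 ± 0.30 (edgeR adjusted p = 0.887). Of the 5 members tested in cones this 1 was lower without overlap, beside 20.1% of all genes. In cone bipolar cells Sesn2 had -0.38 ± 0.27, in rod bipolar cells 0.05 ± 0.32, in rods 0.26 ± 0.34 and in amacrine cells 0.15 ± 0.39. In amacrine cells Sesn2 was the 1 of 5 members without overlap, at 9.46 and 8.80 CPM in NLGF and 7.78 and 8.48 CPM in WT, beside 16.1% of all genes, and 0 were lower, beside 16.6%. In retinal ganglion cells it did not pass the filter, with 5 and 8 UMIs in the NLGF female and male and 2 and 1 in the WT female and male.

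Sesn3 in endothelial cells had the largest value below 0. It had 30.4 CPM in the NLGF female and 54.2 CPM in the NLGF male, from 3 and 15 UMIs, against 124 CPM in the WT female and 118 CPM in the WT male, from 34 and 35 UMIs. The genotypes did not overlap, and the log2 fold change of -1.36 ± 0.38 had an adjusted p of 0.549 with edgeR. The class also holds pericyte RNA, whose 7 markers summed to 3641 and 9014 CPM in the NLGF female and male and to 12482 and 7146 CPM in the WT female and male, in 12, 25, 28 and 23 cells in the same order. These sums overlapped between genotypes. The NLGF female had both the lowest sum and the lowest Sesn3 level, while in the males the NLGF sum was the higher one. The part of pericyte RNA in the Sesn3 value was not tested. Of the 4 members tested in this class 2 were lower without overlap and 1 was higher, beside 20% and 15.2% of all genes. In the other 6 classes where it was tested Sesn3 lay between 0.01 and 0.33 on the log2 scale.

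Ddit4 was the member without overlap and higher in endothelial cells, at 294 and 141 CPM in the NLGF female and male and 127 and 101 CPM in the WT female and male. The log2 fold change was 0.74 ± 0.33 with an adjusted p of 0.948, and it rested on the NLGF female, where 12 of the 29 Ddit4 UMIs came from 1 of 12 cells. Without that library it was 0.28. Without the NLGF male it was 1.38 with an adjusted p of 0.0468 (edgeR), a fit with the NLGF female as its only NLGF library and infinite prior degrees of freedom. In rods Ddit4 had 121 and 138 CPM in the NLGF female and male, against 117 and 86.3 CPM in the WT female and male. Its log2 fold change there was 0.28 ± 0.12 (adjusted p = 0.559), and without the WT female it was 0.46 with an adjusted p of 8.96e-05, a fit whose spread comes from the NLGF pair and the prior alone. Without the WT male it was 0.11. Both values thus turned on single libraries.

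Eif4ebp2 leaned in unlike directions between classes. In rod bipolar cells it had 38.9 and 35.0 CPM in the NLGF female and male, against 26.8 and 25.4 CPM in the WT female and male, a log2 fold change of 0.49 ± 0.21 (edgeR adjusted p = 0.751). In cone bipolar cells it had 46.2 and 49.6 CPM in NLGF, against 43.0 and 34.8 CPM in WT, with 0.30 ± 0.15 (0.789). In endothelial cells it had -0.25 ± 0.29 and in rods -0.11 ± 0.12. In retinal ganglion cells 0 of 4 members tested lay higher and 0 lower without overlap, beside 16.5% and 17.9% of all genes, and in microglia 0 of 6 passed the filter.

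The other genes of the pathway were taken from 13 lists with 122 genes that name its parts and its known inducers. In Müller glia 116 of the 122 were tested, 4 were called higher and 2 lower in NLGF, beside 0.564% and 0.385% of all 11162 genes. In the deep cluster alone 5 of 115 were higher and 3 lower, beside 0.725% and 0.624% of all 10900 genes. The lists were chosen with earlier results of these data known, so their counts are not independent evidence and are not read against these shares. None of the mTORC1 subunits, Rag and Ragulator, GATOR1 and KICSTOR, GATOR2, TSC and Rheb, eIF4F and S6 kinase or autophagy genes were among those called in either fit with edgeR. In the summed class their list medians on the log2 scale were 0.16 for 5 mTORC1 subunits, -0.08 for 8 Rag and Ragulator genes, 0.04 for 6 GATOR1 and KICSTOR genes and -0.16 for 5 GATOR2 genes. They were 0.06 for 15 TSC, Rheb and upstream kinase genes, -0.09 for 14 eIF4F and S6 kinase genes and 0.12 for 17 autophagy and lysosome genes, beside 0.00 for all genes. The relatives Ddit4l and Eif4ebp3 had 0.02 ± 0.18 and 0.74 ± 0.46 and were not called.

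The 6 genes called in the summed class came from 5 of the lists: Atf4 and Ddit3 from the inducing factors, Lars from amino acid sensing, and Mt2, Ndufa4l2 and Ier3 from the glucocorticoid, hypoxia and dissociation lists. Atf4 encodes a known inducer of Sesn2, Ddit4 and Eif4ebp1, of which Ddit4 had a log2 fold change of -0.09 ± 0.11 in this class. A part of Atf4 in the members' values was not tested. The level of Atf4 was 200 and 227 CPM in the NLGF female and male, against 84.9 and 75.3 CPM in the WT female and male. Its log2 fold change was 1.38 ± 0.11 (edgeR adjusted p = 6.5e-07). Ddit3, which encodes CHOP, a stress factor downstream of ATF4, had 223 and 221 CPM in NLGF, against 53.1 and 69.4 CPM in WT, with 1.79 ± 0.12 (6.69e-08). Lars, the leucyl-tRNA synthetase that also senses leucine for mTORC1, had 95.1 and 84.7 CPM in NLGF, against 47.0 and 52.2 CPM in WT, with 0.80 ± 0.15 (0.00912). Atf4, Ddit3 and Lars were each higher in both NLGF libraries than in both WT libraries. Mt2, a metallothionein induced by glucocorticoids and metals, rose by 0.48 ± 0.09 on the log2 scale (edgeR adjusted p = 0.0155). The list medians were 0.07 for 6 amino acid sensing genes, 0.07 for 9 glucocorticoid response genes and 0.32 for 11 inducing factors. The hypoxia-induced gene Ndufa4l2 fell by 1.47 ± 0.29 (0.0195) and the immediate early gene Ier3 fell by 0.82 ± 0.16 (0.0128), while the median of the 8 tested hypoxia genes was -0.10 and that of the 10 dissociation and immediate early genes was -0.30.

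The deep cluster also called Trib3, a pseudokinase induced by ATF4 and CHOP (adjusted p = 0.0406, against 0.0538 in the summed class), and lower Junb (0.0159). Trib3 had 5.76 and 6.26 CPM in the NLGF female and male of the summed class, against 0 and 0.492 CPM in the WT female and male. These calls and the 6 of the summed class are from 2 libraries per genotype, and all 6 calls of the summed class were lost without the WT female (adjusted p = 0.666) and without the WT male (0.672). The log2 fold changes then were 1.63 and 2.03 for Ddit3, 0.73 and 0.90 for Lars, 0.53 and 0.42 for Mt2, -1.51 and -1.40 for Ndufa4l2, and -0.52 and -1.13 for Ier3. Atf4 lay between 1.29 and 1.47 with any 1 library left out. Without a WT library the estimated prior degrees of freedom were 1.72 and 1.75, against 15.45 with all 4 libraries. The calls of Lars, Mt2, Ndufa4l2 and Ier3 were also lost with no filter on low counts (adjusted p from 0.256 to 0.544) and with DESeq2. Leaving out either NLGF library, only the Mt2 call of the 6 was lost, with adjusted p of 0.0529 and 0.0743. In each of the 8 other classes 0 list genes were called higher and 0 lower, out of 17 tested in microglia to 115 in rods.

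For each member the genes most like it over the 36 sums of 9 classes and 4 libraries were found among 10366 genes, by Pearson's r of log2(CPM + 1). These sums share libraries and differ in depth, so r is a description. Eif4ebp1 was most like Mmp14 (r = 0.9028), Plin3 (0.9003) and S100a13 (0.8966). Mmp14 had 95.1 and 79.4 CPM in NLGF and 96.3 and 87.1 CPM in WT Müller glia, so it shared the class pattern of Eif4ebp1 and overlapped between genotypes. Sesn2 was most like AV356131 (0.8850), Zfp882 (0.8674) and 4933439C10Rik (0.8642), and Sesn3 was most like Pcgf5 (0.9111), Hlf (0.9052) and Nr1d2 (0.9041). Sesn1 was most like Txlna (0.9430), Qser1 (0.9323) and Dennd6a (0.9201). Ddit4 was most like Epn2 (0.9358), Shld1 (0.9284) and Strn (0.9206), and Eif4ebp2 was most like Ifnar1 (0.9590), Zhx3 (0.9550) and Ccny (0.9445). Sesn2 had the lowest best match of the 6, and 0 members were among the 3 nearest genes of another member.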

How the data were processed

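Single cells of 4 retinas were profiled on the 10x Genomics platform. The deposited values are unnormalised UMI counts for each gene in each barcode. They come from Cell Ranger 6.1.1 per the file headers, but Cell Ranger 3.1.0, STAR and mm10 appear in the submitters' processing notes. No source used here says if intronic reads count. The lowest barcode total was 500 UMIs. A minimum of 300 genes and a mitochondrial limit of 20% left 33329 barcodes. Scrublet's automatic threshold marked 2 cells, so the top 6% of scores per library were removed (1770 cells). Cells were scaled to 10000 UMIs, log transformed and clustered with scanpy 1.11.5 (2000 variable genes, 30 components, 20 neighbours, Leiden resolution 1). Clusters were named from marker lists (3 detected markers needed, and a mean z-score of 0.8 where none was among the 10 leading genes). Whether 2 genotypes' libraries overlap in a count of genes was judged on CPM with TMM factors, and printed CPM use raw class totals.

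Sums of counts over the cells of a class in a library were used where all 4 libraries held 10 or more such cells. They were tested with edgeR 4.0.16 (quasi-likelihood, TMM, filterByExpr, genotype only, Benjamini-Hochberg adjustment, threshold 0.05), with DESeq2 1.42.0 as an alternative. The SE was derived from the log2 fold change and its F statistic. The fit was tested on simulated data, where edgeR called from 10.4% of planted 2-fold changes in microglia to 82.1% in rods. It called 17.9% of them in retinal ganglion cells and 31.3% in endothelial cells. False calls ran from 0 of 109 calls in Müller glia to 9 of 132 in cones. The edgeR p-values rest on the spread between 2 animals per genotype, a female and a male, and, through the prior, on a spread shared over genes. The spread within a genotype thus includes any difference by sex. No covariate pairs animals except sex, and a fit with sex as a block was an alternative. Other alternatives were RLE factors, no filter, each library left out, doublets kept, thinned counts, a mitochondrial limit of 10%, no astrocyte-marker cells, each Müller cluster alone and, chosen after the data were seen, each rod cluster alone and the deep Müller cluster for counts of genes called. Named were the 6 members, listed pathway genes past the threshold, and the 3 genes most like each member with a mean of at least 10 CPM. Ddit4l, Eif4ebp3, Trib3 and Junb were named after their values were seen. The members and lists were chosen with earlier results of these data known.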

Additional observations from a re-analysis of the deposited data

Results flagged for a closer look

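These results stand here because every NLGF library lay on one side of the WT libraries in one class and on the other side in another class. The differences between classes were not tested. Sesn2 was higher in NLGF Müller glia and lower in NLGF cones, and the log2 fold changes differed by 2.507. Between amacrine cells and cones the Sesn2 difference was 0.7305. Sesn3 was lower in NLGF endothelial cells, and its log2 fold change there lay 1.691 below that of cones, 1.502 below that of rods and 1.457 below that of rod bipolar cells. Eif4ebp2 was higher in NLGF cone bipolar cells by 0.5473 more than in endothelial cells and by 0.4025 more than in rods. In rod bipolar cells Eif4ebp2 lay 0.7446 above endothelial cells and 0.5998 above rods. In rods the Eif4ebp2 libraries separated on TMM-scaled CPM only, at 26.6 and 24.3 raw CPM in the NLGF female and male and 26.9 and 25.1 raw CPM in the WT female and male.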

How the results depend on the processing

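The log2 fold changes of Sesn2 (1.66 to 2.14) and Eif4ebp1 (1.94 to 2.63) in Müller glia kept their direction under every alternative run. The labels give 1 female and 1 male per genotype, so the replicate numbers share only sex, and no paired animals are known. The number of genes called by edgeR was 106 in Müller glia, 6 in amacrine cells, 0 in cones, 9 in cone bipolar cells, 5 in endothelial cells, 0 in microglia, 0 in ganglion cells, 1 in rods and 0 in rod bipolar cells. With no filter on low counts it was 15 in Müller glia, 62 in amacrine cells, 39 in cone bipolar cells, 20 in endothelial cells, 8 in microglia, 77 in ganglion cells, 110 in rods and 42 in rod bipolar cells. With DESeq2 it was 37 in Müller glia, 2 in amacrine cells, 2 in cones, 3 in endothelial cells, 3 in ganglion cells and 2 in rods. With sex as a replicate block it was 284 in Müller glia, 16 in amacrine cells, 39 in cones, 32 in cone bipolar cells, 1 in ganglion cells, 173 in rods and 1 in rod bipolar cells. With doublets kept it was 237 in Müller glia, 0 in amacrine cells, 14 in cone bipolar cells and 1 in rod bipolar cells. After thinning counts to the depth of the smallest library it was 68 in Müller glia, 1 in amacrine cells, 1 in endothelial cells and 1 in rod bipolar cells. With RLE factors it was 1 in ganglion cells. With each library left out in turn it ran from 0 to 134 in Müller glia, 40 to 55 in amacrine cells, 0 to 60 in cones, 32 to 49 in cone bipolar cells, 13 to 39 in endothelial cells, 7 to 86 in microglia, 2 to 210 in ganglion cells, 22 to 1039 in rods and 12 to 33 in rod bipolar cells. In Müller glia 0 were called without the WT female and without the WT male, where edgeR's estimated prior degrees of freedom were 1.72 and 1.75, against 15.45 with all libraries. Pathway list genes called were 2 in Müller glia (with no filter on low counts), 2 in Müller glia (with DESeq2), 2 in microglia (with no filter on low counts), 3 in rods (with sex as a replicate block) and 1 in rod bipolar cells (with no filter on low counts), and with a library left out 0 to 6 in Müller glia, 0 to 1 in endothelial cells, 0 to 3 in microglia, 0 to 1 in ganglion cells, 0 to 13 in rods and 0 to 1 in rod bipolar cells. Members called outside Müller glia, 0 as reported, were 1 with no filter, 1 with sex as a replicate block and 0 to 2 with a library left out. In the shallow Müller cluster the log2 fold change was 0.26 for Sesn3 in Müller glia, -0.62 for Ddit4 in Müller glia and 2.63 for Eif4ebp1 in Müller glia. With doublets kept the log2 fold change was 0.014 for Ddit4 in Müller glia, -0.047 for Sesn3 in amacrine cells, -0.11 for Ddit4 in amacrine cells and 0.018 for Eif4ebp2 in cones. After thinning counts to the depth of the smallest library the log2 fold change was -0.21 for Ddit4 in Müller glia, -0.048 for Ddit4 in amacrine cells and 0.19 for Eif4ebp2 in ganglion cells. With a mitochondrial limit of 10% the log2 fold change was -0.025 for Eif4ebp2 in Müller glia. With sex as a replicate block the log2 fold change was -0.0035 for Sesn3 in amacrine cells, 0.021 for Sesn1 in endothelial cells and -0.011 for Ddit4 in ganglion cells. With RLE factors the log2 fold change was 5.8e-05 for Eif4ebp2 in ganglion cells. In rod cluster 5 the log2 fold change was -0.24 for Sesn1 in rods. With a library left out the log2 fold change ranged from -0.13 to 0.093 for Sesn3 in Müller glia, -0.17 to 0.014 for Ddit4 in Müller glia, 1.95 to 2.19 for Eif4ebp1 in Müller glia, -0.36 to 0.15 for Sesn1 in amacrine cells, -0.14 to 0.13 for Sesn3 in amacrine cells, -0.36 to 0.22 for Eif4ebp2 in cones, -0.0089 to 0.047 for Sesn3 in cone bipolar cells, -0.021 to 0.13 for Ddit4 in cone bipolar cells, -0.39 to 0.36 for Sesn1 in endothelial cells, -0.032 to 0.44 for Sesn1 in ganglion cells, -0.30 to 0.53 for Sesn3 in ganglion cells, -0.65 to 0.47 for Ddit4 in ganglion cells, -0.60 to 0.38 for Eif4ebp2 in ganglion cells, -0.23 to 0.61 for Sesn2 in rods, -0.40 to 0.44 for Sesn2 in rod bipolar cells and -0.019 to 0.28 for Ddit4 in rod bipolar cells. With TMM factors the mean level in Müller glia was 395 CPM for Sesn3, 125 CPM for Ddit4 and 52.2 CPM for Eif4ebp2. Thinned to 1000 UMIs per cell, the mean share of Müller cells with a UMI was 4.52% in NLGF and 6.48% in WT for Sesn1, 2.83% in NLGF and 0.797% in WT for Sesn2, 28.7% in NLGF and 29.5% in WT for Sesn3, 10.6% in NLGF and 8.72% in WT for Ddit4, 3.78% in NLGF and 1.79% in WT for Eif4ebp1 and 4.56% in NLGF and 3.44% in WT for Eif4ebp2. The cause of these changes was not tested. Low counts limit Eif4ebp1 in neurons and all members in microglia and endothelial cells. Each rod cluster alone, and the deep Müller cluster for counts of genes called, were chosen after the data were seen.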
